A study of Rattus norvegicus with 8 samples.

Results

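Lipoprotein lipase and the genes that act with it in fatty acid uptake were followed in rat adipose precursors and in the adipocytes grown from them. The set was named by symbol as 9 genes, Lpl, Angptl4, Gpihbp1, Lmf1, Cd36, Vldlr, Fabp4, Fabp5 and Slc27a1. A row with the same symbol was found for 7 of them in each of the 2 deposited tables, which list 14295 genes for the precursors and 18236 for the adipocytes. Gpihbp1 and Cd36 were not analysed here. No symbol of the set repeated within a table, and all 7 genes passed the filter on low values in both tables.

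The cells were adipose-derived stem cells (ASC), labelled as mesenchymal stem cells, from the inguinal fat of Wistar rats of wild-type genotype. For 6 months the rats were fed either control chow, group C, or food rich in fat and sucrose, group HFS. ASC were obtained by collagenase digestion and grown in serum. Adipocytes (AD) were made from them by 3 days in insulin (10.0 µg/mL) with dexamethasone (5.0 µM) and IBMX (0.5 mM), and then 7 days in maintenance medium with insulin (10.0 µg/mL). All AD libraries therefore come from cells exposed to glucocorticoid, a cAMP-raising agent and insulin, whatever the diet. The 4 groups ASC_C, ASC_HFS, AD_C and AD_HFS hold 2 libraries each. No label ties the 2 libraries of a group to different animals or cultures, so each p below measures only the spread between these libraries, which may be technical.

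Lipoprotein lipase is secreted by adipocytes and splits the triglyceride of circulating lipoproteins at the capillary wall. Lmf1 is a factor of the endoplasmic reticulum that the enzyme needs to fold, Angptl4 is a secreted protein that inactivates it, and Gpihbp1 carries it across the endothelium. Vldlr binds triglyceride-rich lipoproteins, Cd36 and Slc27a1 (FATP1) promote the entry of the released fatty acids, and Fabp4 and Fabp5 carry fatty acids inside the cell. In fat, this route supplies most of the fatty acid that is stored, and many of its genes are targets of PPARG, the nuclear receptor that drives adipocyte differentiation.

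The depth recovered from the deposited values was 992618 to 7290961 reads per library in ASC and 76083827 to 119555051 in AD. The shallowest library was ASC_HFS replicate 2, where a floor of 3 reads equals 10.9 normalized counts. The 2 AD_HFS libraries lay closer together than any other pair, with a median absolute log2 ratio between libraries of 0.0657, against 0.300 in AD_C, 0.385 in ASC_C and 0.363 in ASC_HFS. They differed by more than sampling noise, with a chi-square per degree of freedom of 7.76, and were kept as 2 samples. All 12 progenitor markers were listed in ASC, with a summed share of 1.83% to 3.00% of reads. Adipocyte markers, with the genes of the set left out, took 0.0595% to 0.267% of reads in ASC and 1.53% to 1.71% in AD (13 of 14 listed), so the labelled stages were apart. Counting intervals and floors cover counting error only.

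The promoters of the 2 genes that passed the main test of diet in ASC, given below with its limits, are shown. Their sequences bear on the search for PPAR elements described after them. They are the 250 bases before the start site that RefSeq uses on the build GRCr8, 5′ to 3′ on the gene's strand, with matches to a TATA box (TATAAA) or a GC box (GGGCGG) on either strand in capitals. The Angptl4 window is chr7:15258682-15258931 on the minus strand and the Lmf1 window is chr10:15102025-15102274 on the plus strand.
Angptl4: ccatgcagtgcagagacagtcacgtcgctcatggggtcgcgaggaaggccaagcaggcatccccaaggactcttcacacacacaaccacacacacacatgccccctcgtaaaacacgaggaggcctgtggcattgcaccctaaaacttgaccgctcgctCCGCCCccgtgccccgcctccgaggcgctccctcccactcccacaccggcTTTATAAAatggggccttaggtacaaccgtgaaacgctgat
Lmf1: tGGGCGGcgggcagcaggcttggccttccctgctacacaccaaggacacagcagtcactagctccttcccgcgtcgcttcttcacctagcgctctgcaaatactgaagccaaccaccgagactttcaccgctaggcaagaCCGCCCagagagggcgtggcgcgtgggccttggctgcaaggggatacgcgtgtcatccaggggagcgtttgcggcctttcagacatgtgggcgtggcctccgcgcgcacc
In Angptl4 the TATA box began 39 bases before the start site, overlapping a match on the other strand that began 41 bases before it, and 1 GC box began 91 bases before it. The Lmf1 window held 2 GC boxes and no TATA box match. Over all 33469 windows of this length, 12.9% held a TATA box match and 30.5% a GC box match. The PPAR pattern, 2 half-sites AGGNCA with 1 base between them (AGGNCANAGGNCA), was searched on both strands. It was found in 0.367% of all windows and in none of the windows of Angptl4, Lmf1, Vldlr and Slc27a1. No match says only that these letters are not in this window. The deposited tables carry no coordinates, and the RefSeq table of windows gave one for 4 of the 7 measured genes.

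Across stages, Lpl, Fabp4, Slc27a1 and Vldlr were higher in adipocytes than in precursors, while Fabp5 overlapped between them. These levels are reads per 1000000 reads of the 14018 genes that both tables list (RPM). They are given as a description, with no test, because the tables were normalized separately. The 7 genes together took 0.246% to 0.464% of reads in the ASC libraries and 1.30% to 1.63% in the AD libraries. In control cells 4 of the 7 genes had both AD libraries above both ASC libraries, against 31.4% of all shared genes. In HFS cells this held for 5 of 7, against 47.9%. In bulk samples, fewer cells of a type and less RNA per cell cannot be told apart.

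**Figure D1:**
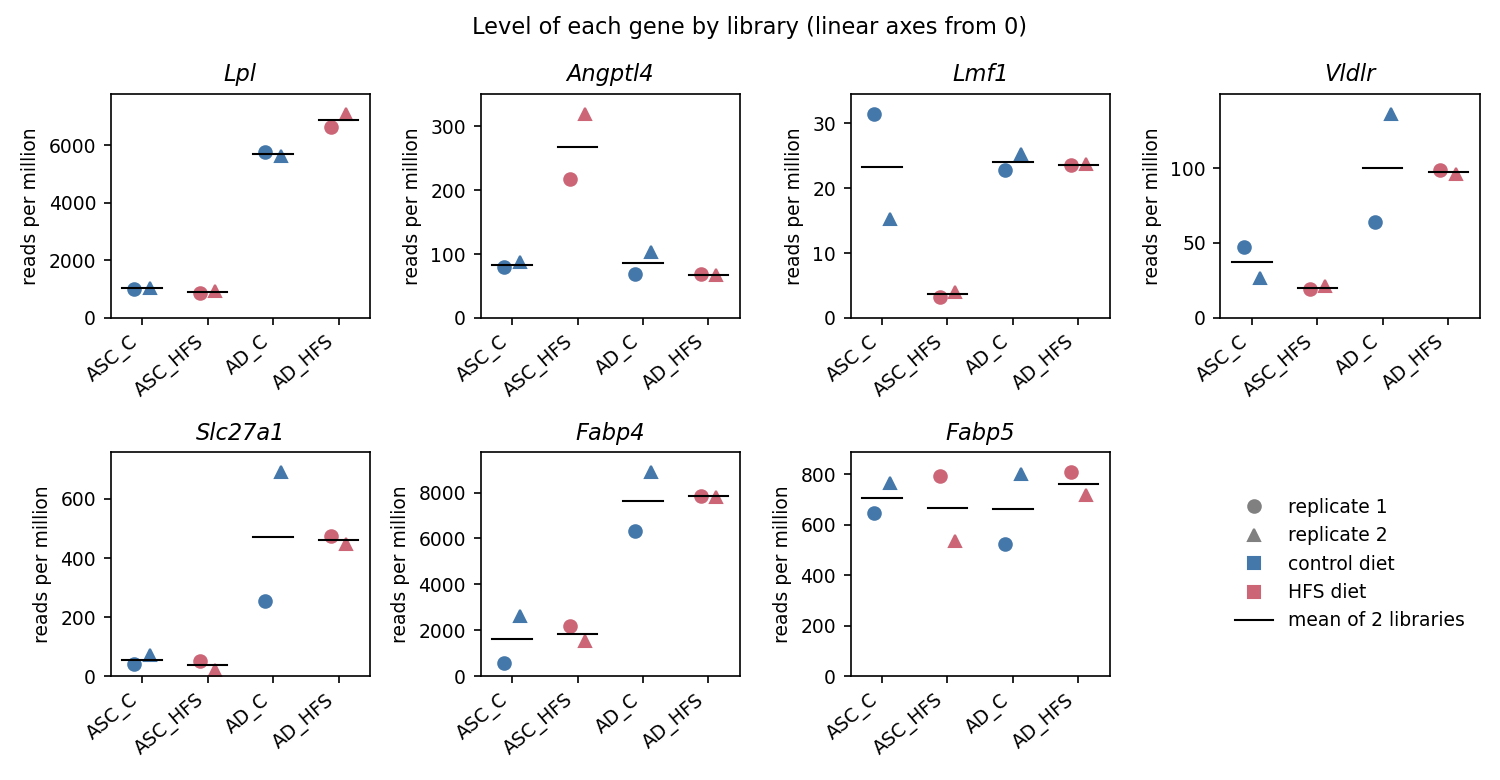
Each panel plots 1 gene, with RPM (reads per 1000000 reads of shared genes) on a linear axis from 0 and the 4 groups on the other axis. Points are single libraries (circle replicate 1, triangle replicate 2; blue control diet, red HFS diet) and the line is the mean of 2 libraries; Angptl4 stands out in ASC_HFS at 217 and 320 RPM, and Lmf1 is at 3.25 and 4.03 there.

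Lpl stood at 1013 and 1042 RPM in the ASC_C libraries, 864 and 923 in ASC_HFS, 5769 and 5629 in AD_C and 6639 and 7080 in AD_HFS. The mean was 5.55-fold higher in AD_C than in ASC_C and 7.67-fold higher in AD_HFS than in ASC_HFS. No 2 groups overlapped on this scale. The order of the 2 ASC groups rests on the scale, since their normalized counts in the authors' scaling overlapped.

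By the ratio of group means, Slc27a1 showed the largest step between stages among the 7 genes. It was at 41.3 and 71.9 RPM in ASC_C and 53.2 and 21.2 in ASC_HFS, against 254 and 689 in AD_C and 475 and 447 in AD_HFS. The mean ratio of AD to ASC was 8.33 in control cells and 12.4 in HFS cells. The ASC groups overlapped, and both AD_HFS libraries lay between the AD_C libraries.

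Fabp4, the main fatty acid carrier of adipocytes, was at 605 and 2635 RPM in ASC_C, 2197 and 1522 in ASC_HFS, 6344 and 8874 in AD_C and 7836 and 7821 in AD_HFS. The AD to ASC ratio of the means was 4.70 in control and 4.21 in HFS cells. Every AD library was above every ASC library, and within each stage the diets overlapped. Vldlr had ratios of 2.70 and 4.82, with 64.0 and 136 RPM in AD_C and 98.4 and 96.0 in AD_HFS.

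Fabp5, a carrier found in many cell types, was at 647 and 765 RPM in ASC_C, 794 and 536 in ASC_HFS, 524 and 801 in AD_C and 807 and 716 in AD_HFS. All 4 groups overlapped. The ratio of AD to ASC was 0.939 in control and 1.14 in HFS cells. How reads shared with near-identical copies of Fabp5 were counted is not given in the sources used here, so its level is uncertain.

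Angptl4 and Lmf1 overlapped between stages in control cells and lay apart, in opposite directions, in HFS cells. Angptl4 was at 79.1 and 87.9 RPM in ASC_C and 68.2 and 104 in AD_C, a ratio of 1.03. In HFS cells it was at 217 and 320 in ASC and at 69.0 and 67.1 in AD, a ratio of 0.254. It was the only gene of the 7 with both AD_HFS libraries below both ASC_HFS libraries, which held for 4600 of the 14018 shared genes. Lmf1 was at 31.4 and 15.2 in ASC_C and 22.8 and 25.2 in AD_C, a ratio of 1.03, but at 3.25 and 4.03 in ASC_HFS and 23.6 and 23.7 in AD_HFS, a ratio of 6.49. From low to high the Lmf1 groups ran ASC_HFS and then the other 3, which overlapped.

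The first diet comparison set the ASC_HFS libraries against the ASC_C libraries. Angptl4, the lipase inhibitor, rose, and Lmf1, the lipase maturation factor, fell, while Lpl itself and the fatty acid carriers did not pass the test. By limma-trend 1 gene of the 7 was called higher, against 9.41% of all genes tested, and 1 lower, against 9.7%. Together these are 2 of 7, where 19.1% of all genes were called, so the share is not far from the background. The median log2 difference of the 7 genes was -0.01, against -0.04 over all genes. Libraries of the 2 diets did not overlap for 3 of the 7 (Angptl4, Lmf1 and Vldlr), against 61% of all genes. For Lpl and Fabp4 both HFS libraries lay between the control libraries, as in 6.86% of all genes, and for Fabp5 both control libraries lay between the HFS libraries, as in 9.28%. Values below are normalized counts recovered from the deposited values, each group with n = 2. Log2 differences are HFS minus C on the log2(value + 1) scale of the deposited values, which understates the change of low genes.

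**Figure D2:**
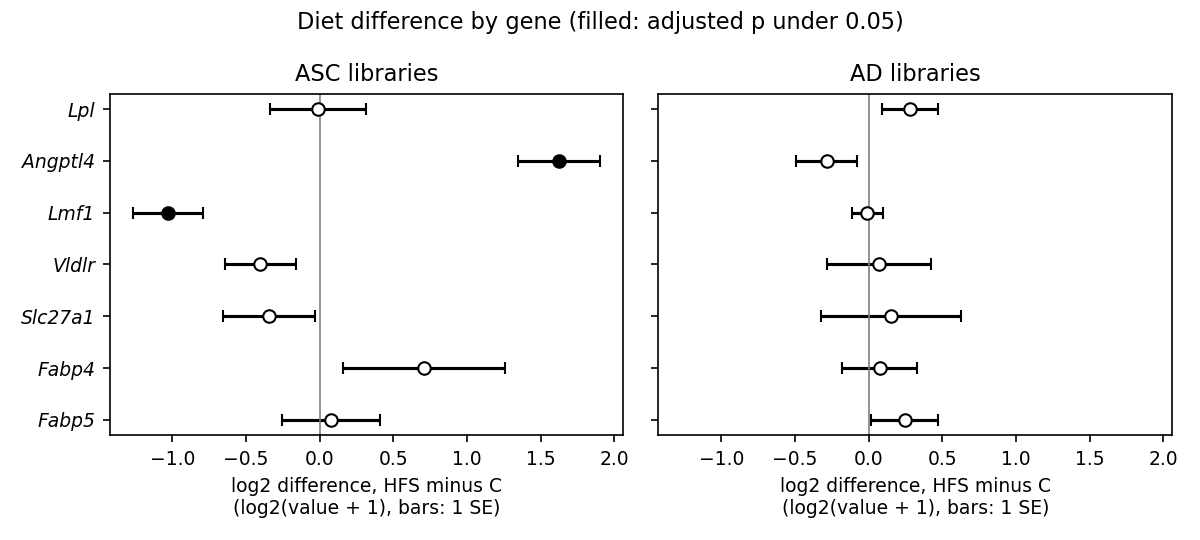
Log2 difference between HFS and C (horizontal axis, log2(value + 1) of the deposited values) for each of the 7 genes in the ASC libraries (left) and the AD libraries (right). Points are the fitted difference, bars 1 SE, and filled points have an adjusted p under 0.05; only Angptl4 (1.62) and Lmf1 (-1.03) in ASC are filled.

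Angptl4 (ENSRNOG00000007545) was at 245 and 287 normalized counts in the ASC_C libraries and at 791 and 1150 in the ASC_HFS libraries. Both HFS libraries were above both control libraries. The means were 266 ± 30.3 and 970 ± 253 (SD, n = 2), a ratio of 3.65, and the log2 difference was 1.62 ± 0.277 (SE, limma-trend adjusted p = 0.00165). These values rest on 264 and 641 reads in ASC_C and 1269 and 317 in ASC_HFS. Lmf1 (ENSRNOG00000000230) was at 97.3 and 49.8 normalized counts in ASC_C and at 11.8 and 14.5 in ASC_HFS. The HFS libraries were the 2 lowest, and the control libraries differed, the second at 0.512 of the first. The means were 73.5 ± 33.6 and 13.2 ± 1.88 (SD, n = 2), 5.58-fold lower in HFS, with a log2 difference of -1.03 ± 0.236 (SE, limma-trend adjusted p = 0.00908). The HFS level rests on 19 and 4 reads. The Wilson 95% interval in ASC_HFS replicate 2, the shallower one, was 1.57 to 10.4 RPM, below that of ASC_C replicate 2 at 12.6 to 18.3.

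Neither call held in limma-trend when any 1 library was left out, although the direction did each time. No gene of the whole table was called by limma-trend in these fits, where 2318 to 4538 genes had an unadjusted p under 0.05. Without a control library the limma-trend adjusted p of Angptl4 was 0.297 (replicate 1) and 0.216 (replicate 2), and without an HFS library 0.0661 and 0.161. For Lmf1 it was 0.299 and 0.216 without a control library, and 0.115 and 0.176 without an HFS library. Limma-voom on the recovered reads kept Angptl4 in each case (largest adjusted p = 0.0105), and lost Lmf1 only without ASC_HFS replicate 1 (adjusted p = 0.391), where the 4 reads of the other library are left.

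Lpl (ENSRNOG00000012181) was at 3132 and 3404 normalized counts in ASC_C and at 3151 and 3322 in ASC_HFS. Both HFS libraries fell between the control libraries, with a log2 difference of -0.01 ± 0.327 (SE, limma-trend adjusted p = 0.984). Vldlr was at 147 and 86.5 in ASC_C and at 69.8 and 76.2 in ASC_HFS, without overlap, with a log2 difference of -0.40 ± 0.240 (SE, limma-trend adjusted p = 0.259). Slc27a1 was at 128 and 235 in ASC_C and at 194 and 76.2 in ASC_HFS, and its groups overlapped (log2 difference -0.35 ± 0.312 SE, limma-trend adjusted p = 0.468). Fabp5 was at 2000 and 2499 in ASC_C and at 2894 and 1929 in ASC_HFS, where the HFS libraries enclosed the control libraries (log2 difference 0.08 ± 0.334 SE, limma-trend adjusted p = 0.898).

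Fabp4 was the gene of the set in which the 2 control precursors differed most. It was at 1872 and 8609 normalized counts in ASC_C and at 8011 and 5476 in ASC_HFS, a factor of 4.60 between the control libraries. The log2 difference was 0.71 ± 0.549 (SE, limma-trend adjusted p = 0.397), and it was -0.37 without ASC_C replicate 1 and 1.79 without ASC_C replicate 2. The adipocyte marker share was 0.0595% and 0.207% of reads in ASC_C and 0.267% and 0.198% in ASC_HFS. Both this share and Fabp4 were lowest in ASC_C replicate 1. The share was highest in ASC_HFS replicate 1, whereas Fabp4 was highest in ASC_C replicate 2. The part of the marker share in the levels of Fabp4, Angptl4, Lmf1 and Lpl was not tested. Of the marker share, the gene Cfd alone took 0.0215% and 0.107% of reads in ASC_C and 0.158% and 0.107% in ASC_HFS. Ratios to the summed markers therefore depend much on Cfd. Per read of the summed markers, Fabp4 had 1.02 and 1.27 reads in ASC_C and 0.823 and 0.768 in ASC_HFS. The same ratio for Angptl4 was 0.133 and 0.0425 in ASC_C and 0.0813 and 0.161 in ASC_HFS, so that on this scale the diets overlapped. For Lmf1 it was 0.0529 and 0.00736 in ASC_C and 0.00122 and 0.00203 in ASC_HFS, without overlap. Lpl had 1.70 and 0.504 in ASC_C and 0.324 and 0.466 in ASC_HFS, so that ASC_C replicate 1, the library with the lowest adipocyte marker share, stood highest.

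**Figure D3:**
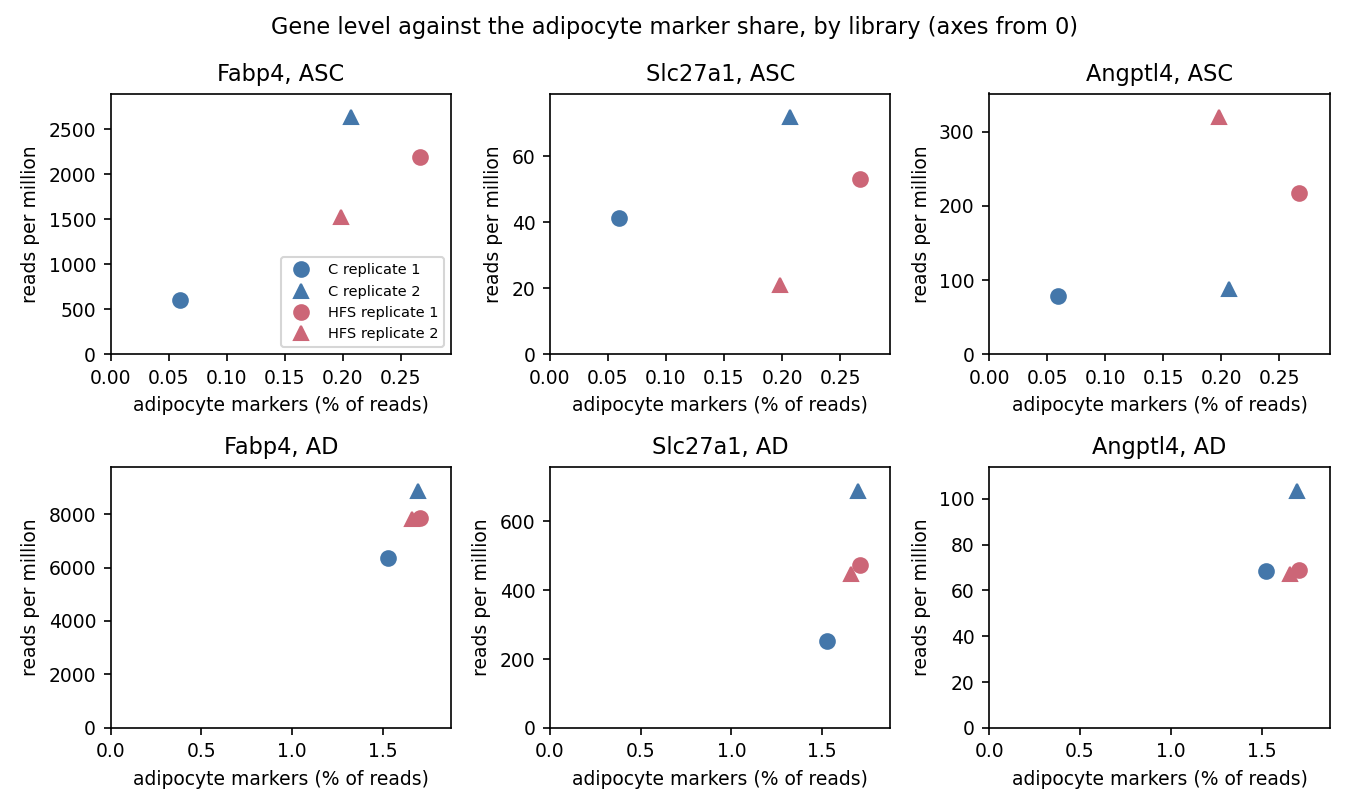
Level of Fabp4, Slc27a1 and Angptl4 (RPM) against the summed share of 13 adipocyte markers (% of reads) in each library of ASC (top) and AD (bottom), all axes from 0; points are single libraries, blue C and red HFS. In ASC the control library with a marker share of 0.0595% has the lowest Fabp4, and both HFS libraries have more Angptl4 than both control libraries. The part of the marker share in these levels was not tested.

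Markers of other cell types also differed between the ASC groups, and their part in the Angptl4 and Lmf1 differences was not tested. The summed share of 13 of 14 macrophage markers was 0.102% to 0.105% in ASC_C and 0.317% to 0.343% in ASC_HFS, with 11 called higher by limma-trend. That of 11 of 13 endothelial markers was 0.0328% to 0.0692% and 0.136% to 0.140%, with 8 higher. That of the 7 mammary epithelial markers listed in both tables was 0.0103% to 0.0131% and 0.136% to 0.151%, with 7 of the 8 listed in ASC higher. Progenitor markers took 1.83% to 2.03% in ASC_C and 2.87% to 3.00% in ASC_HFS, with 4 called higher and 3 lower. Col1a1, a collagen gene that was not called (limma-trend adjusted p = 0.0744), carried that rise in the sum. Without it the other 11 took 0.963% and 0.846% in ASC_C and 0.651% and 0.655% in ASC_HFS, so that the order of the groups turned. None of the macrophage, endothelial or adipocyte markers listed was at 0 in any library. Of the 3 skeletal muscle markers listed in both tables, 2 were at 0 in at least 1 ASC library.

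Related genes were set beside these 7 in 5 lists. The median of all genes was -0.04 on the log2 scale in this comparison. Of all genes, limma-trend called 19.1%, with 9.41% higher and 9.7% lower.

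Among 14 measured partners and regulators of lipoprotein lipase, 5 rose and 1 fell in ASC_HFS, with a median log2 difference of -0.02. Apoe, an apolipoprotein that macrophages and adipocytes secrete, was at 6131 and 20848 normalized counts in C and 42187 and 36303 in HFS (log2 difference 1.78, limma-trend adjusted p = 0.0356). Sdc4 and Sdc1, heparan sulfate proteoglycans of the cell surface, rose 2.49-fold and 2.05-fold. Furin, a protease that cleaves both the lipase and its inhibitors of the ANGPTL family, rose 2.36-fold (log2 difference 1.14, limma-trend adjusted p = 0.0123). The gene that fell was Lmf2, the paralog of Lmf1, which the naming rule left out and which was chosen after its value was seen. It was at 168 and 83.4 normalized counts in C and 56.1 and 39.9 in HFS (log2 difference -0.79, limma-trend adjusted p = 0.0461). Angptl8, another inhibitor of the family, did not pass (254 and 476 in C, 277 and 105 in HFS, limma-trend adjusted p = 0.121).

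Of 10 measured lipoprotein and scavenger receptors, 3 rose and 2 fell, with a median log2 difference of 0.52. Scarb1, a receptor of high-density lipoprotein, rose 2.40-fold and Stab1, a scavenger receptor of macrophages and sinusoidal endothelium, 8.02-fold.

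Of 17 measured genes of fatty acid transport and activation, 1 rose and 4 fell, with a median log2 difference of -0.06. Cavin1, which forms caveolae, rose from 76.0 and 133 normalized counts to 264 and 395 (log2 difference 1.25, limma-trend adjusted p = 0.00644). Zdhhc4, a palmitoyltransferase that acts on CD36, was at 106 and 112 in C and 17.5 and 29.0 in HFS, 4.68-fold lower. Got2, a mitochondrial aminotransferase also found at the plasma membrane, and Dbi, the acyl-CoA binding protein, were 2.69-fold and 2.52-fold lower. Slc27a4, a relative of Slc27a1, was 2.24-fold lower, at 220 and 229 in C and 103 and 97.9 in HFS, and was chosen after its value was seen, being the 1 called gene of this list that the naming rule left out.

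Of 14 measured PPAR targets outside the set, 8 rose and 0 fell, with a median log2 difference of 0.88. Of the 13 adipocyte markers measured, 5 were called higher by limma-trend as well, and of the 13 macrophage markers 11, and their part in these counts was not tested. Plin2, a lipid droplet coat protein, was at 2420 and 2515 normalized counts in C and 6785 and 11655 in HFS (log2 difference 1.82, limma-trend adjusted p = 0.00500). Cidec, a lipid droplet protein that is also in the adipocyte marker list, was at 15.7 and 74.9 in C and 165 and 138 in HFS. The target Pck1, which supplies glycerol phosphate for triglyceride, was at 1.85 and 9.41 in C and 116 and 163 in HFS (log2 difference 1.98, limma-trend adjusted p = 1.34e-04), with the first control library below the floor of 2.78. The receptors themselves and the other transcriptional regulators gave 0 calls of 13 measured by limma-trend. Of these 13, 3 had an unadjusted p under 0.05 and limma-voom called 2. Over all 14295 genes these counts were 4756 and 3190. Pparg was at 119 and 193 in C and 208 and 167 in HFS, and Nr3c1, the glucocorticoid receptor, at 376 and 306 in C and 516 and 740 in HFS (limma-trend adjusted p = 0.589 and 0.0682).

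**Figure D4:**
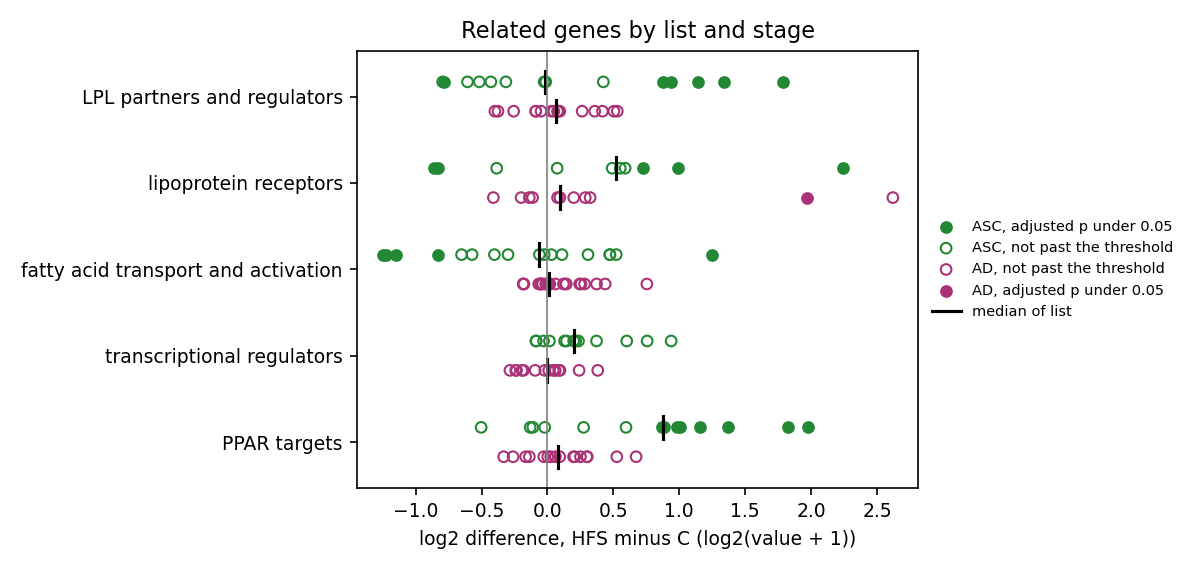
Log2 difference between HFS and C (horizontal axis) for each measured gene of 5 lists related to the set, in ASC (green, upper row of each list) and AD (purple, lower row); filled points have an adjusted p under 0.05 and black ticks are list medians. The PPAR targets sit to the right in ASC, with a median of 0.88, and around 0 in AD, with a median of 0.08.

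The second diet comparison asked the same of the adipocytes. None of the 7 genes passed in AD, and the control libraries lay on both sides of the HFS libraries for most of them. By limma-trend 0 of 7 were called, where 1.34% of all genes were (1.31% higher and 0.0329% lower), with 0 of 7 at an unadjusted p under 0.05 and 0 called by limma-voom. The median log2 difference of the 7 genes was 0.08, against -0.01 over all genes. Both HFS libraries lay between the 2 control libraries for 4 of 7 (Lmf1, Vldlr, Fabp4 and Slc27a1), against 29.5% of all genes, and the reverse held for 0 of 7, against 3.41%. The groups did not overlap for 1 of 7 (Lpl), against 47.7% of all genes.

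Lpl was at 554893 and 540445 normalized counts in AD_C and at 645556 and 686141 in AD_HFS. Both HFS libraries were above both control libraries, with means of 547669 ± 10216 and 665848 ± 28698 (SD, n = 2) and a ratio of 1.22. The log2 difference of 0.28 ± 0.191 (SE) had a limma-trend adjusted p = 0.590. Angptl4 was at 6564 and 9938 in AD_C and at 6708 and 6506 in AD_HFS, so that AD_C replicate 2 stood above the other 3 libraries (log2 difference -0.28 ± 0.207 SE, limma-trend adjusted p = 0.613). Lmf1 was at 2197 and 2422 in AD_C and at 2292 and 2296 in AD_HFS. These 4 libraries were the closest together of any gene of the set in AD, with a log2 difference of -0.01 ± 0.104 (SE, limma-trend adjusted p = 0.986).

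Vldlr was at 6157 and 13064 normalized counts in AD_C and at 9565 and 9308 in AD_HFS. Slc27a1 was at 24382 and 66183 in AD_C, a factor of 2.71 between the control libraries, and at 46160 and 43282 in AD_HFS. Fabp4 was at 610173 and 851971 in AD_C and at 761915 and 757999 in AD_HFS. In each of these genes AD_C replicate 2 was the highest and AD_C replicate 1 the lowest library. Fabp5 was at 50377 and 76897 in AD_C and at 78421 and 69391 in AD_HFS (log2 difference 0.24 ± 0.230 SE, limma-trend adjusted p = 0.697). The adipocyte marker share was 1.53% and 1.70% in AD_C and 1.71% and 1.66% in AD_HFS. Progenitor markers took 0.843% and 1.28% in AD_C and 0.750% and 0.754% in AD_HFS. Without Col1a1, at 0.166% and 0.757% in AD_C, they took 0.678% and 0.526% in AD_C and 0.371% and 0.382% in AD_HFS. Macrophage markers took 0.0416% and 0.0798% in AD_C and 0.377% in both AD_HFS libraries, and the part of either in these levels was not tested.

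Which control library was kept set the sign of the diet difference in AD for 6 of the 7 genes, all except Lpl. Without AD_C replicate 1 the log2 difference was -0.46 for Vldlr, -0.56 for Slc27a1 and -0.16 for Fabp4, and without AD_C replicate 2 it was 0.60, 0.87 and 0.32. In these fits 1 control library was left, and the spread came from the closely matched AD_HFS pair alone. Their values are therefore given as effect sizes only. Lpl was higher in HFS whichever control library was left out (0.30 and 0.26 on the log2 scale). Angptl4 was at -0.57 without AD_C replicate 1 and at 0.0090 without AD_C replicate 2. In the same order, Fabp5 was at -0.060 and 0.55, and Lmf1 at -0.072 and 0.057. Without either AD_HFS library no gene of the 7 was called.

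Of the related lists in AD, limma-trend called 1 gene. Msr1, a scavenger receptor of macrophages, rose from 614 and 972 normalized counts to 3823 and 3416 (log2 difference 1.97, limma-trend adjusted p = 0.0374). Stab1 was at 3036 and 10972 in AD_C and at 37709 and 36012 in AD_HFS. It was not called (log2 difference 2.62, limma-trend adjusted p = 0.151). Of the 11 receptors 5 had an unadjusted p under 0.05, and limma-voom called 1. Over all 18236 genes these counts were 2540 and 150. The other 10 receptors, 16 lipase partners, 22 genes of fatty acid transport and 14 regulators gave no call. Neither did the 16 PPAR targets, of which 2 had an unadjusted p under 0.05 and 0 were called by limma-voom. Of the partners 2, of the transport genes 2 and of the regulators 0 had an unadjusted p under 0.05, and limma-voom called 0 in each. Medians of the 5 lists were 0.06 for lipase partners, 0.09 for receptors, 0.01 for fatty acid transport, -0.00495 for regulators and 0.08 for PPAR targets on the log2 scale.

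The diet differences of the stages were then set against each other in 1 fit of all 8 libraries. The diet differences of Angptl4 and Lmf1 were not the same in both stages, and the other 5 genes did not pass. By limma-trend 2 of 7 were called, where 12.5% of the 14018 shared genes were. Lmf1 was the 1 with a higher diet difference in AD (7.53% of all genes) and Angptl4 the 1 with a lower (4.93%). The difference for Angptl4 (AD minus ASC) was -1.91 ± 0.333 on the log2 scale (SE, limma-trend adjusted p = 0.00956). It was called with each library left out in turn other than ASC_C replicate 1, where the limma-trend adjusted p was 0.0516. That for Lmf1 was 1.02 ± 0.282 (SE, limma-trend adjusted p = 0.0436), and it was called only without ASC_C replicate 2 or AD_C replicate 2 (limma-trend adjusted p = 0.0207 and 0.0482, and up to 0.168 without others). The remaining 5 differences were 0.29 ± 0.364 for Lpl, 0.47 ± 0.432 for Vldlr, -0.63 ± 0.828 for Fabp4, 0.17 ± 0.400 for Fabp5 and 0.50 ± 0.625 for Slc27a1 (SE). Of these, Fabp4 was called lower without ASC_C replicate 2 (-1.71, limma-trend adjusted p = 0.0493). The values of low genes are compressed differently in the 2 tables, and on the log2 of recovered counts the differences were -2.13 for Angptl4 and 2.32 for Lmf1.

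Related genes were tested in the same fit. Of all shared genes, 7.53% were called with a higher diet difference in AD and 4.93% with a lower. Of 14 PPAR targets 4 had a lower diet difference in AD than in ASC by limma-trend, among them Pck1 (-1.78), Plin2 (-1.76) and Cpt1a (-1.22), an enzyme of fatty acid oxidation. Of 17 fatty acid transport genes 4 had a higher one, Dbi (1.51), Got2 (1.39), Zdhhc4 (1.12) and Slc27a4 (0.84), and Cavin1 had a lower one (-1.26). Among 14 lipase partners Sdc4 (-1.71) and Furin (-1.54) had a lower one. For the 10 receptors, it was higher for 3, among them Msr1 (1.38), and lower for 1, Lrp8 (-0.86).

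The genes most alike in level over the 8 libraries were sought among 8372 genes of at least 10 RPM on average, by Pearson's r of log2(RPM + 1), as a description. Lpl was nearest to Acaca, which makes malonyl-CoA for fatty acid synthesis (r = 0.996), Ghr, the growth hormone receptor (0.996), and Fyco1 (0.996). Angptl4 was nearest to Nfkbiz, a nuclear regulator of the NF-kB response (r = 0.987), Rnf103 (0.984) and Ssh1 (0.980). Nfkbiz was at 57.5 and 65.7 RPM in ASC_C, 159 and 228 in ASC_HFS, 46.4 and 56.6 in AD_C and 42.3 and 44.8 in AD_HFS. The 8 points share 4 groups and 2 stages that differ in depth, so such values can follow from the group means alone, which was not tested.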

How the data were processed

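RNA was sequenced as 50 bp paired ends, per the labels. The submitters' processing notes name featureCounts, STAR, FastQC and DESeq2, with the builds rn7 and mRatBN7.2, and no versions. The labels name both polyA RNA and an rRNA depletion kit. The authors deposited 1 table of signal values per stage. From their form, each deposited signal is 2 raised to a variance-stabilized count, normalized by size factors within its table. With v0 the lowest value of a table, (v - v0) squared over v returned normalized counts, and these came out as whole reads (within 0.001) for 100% of values. Depths, RPM and Wilson 95% intervals were computed from those reads.

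The main test was limma-trend (limma 3.58.1, R 4.3.3), two-sided, on log2(value + 1) within each table, with 2 residual degrees of freedom. A minimum mean of 10 removed no gene. Benjamini-Hochberg adjustment ran over all genes tested, with a threshold of 0.05. The interaction used 4 group means. The script was tested on simulated data. edgeR was not run, since the unit check did not take the columns as counts, and limma-voom used recovered size factors, or library sizes over shared genes for the interaction, in place of TMM factors.

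Genes and lists were chosen with earlier results of these data known. All members were described. From each list the called genes with the largest differences were named, at most 4 per comparison. Lmf2, Angptl8, Pparg and Nr3c1, Stab1 in AD, and Slc27a4 in ASC and in the interaction, fall outside that rule. They were chosen after their values were seen, as were the TATA and GC box searches. Some called genes of the lists are not reported here by name. Alternatives were pseudocounts of 0.5 and 5, other filters and scalings, a replicate block, robust moderation, all 8 libraries in 1 fit, recovered counts and each library left out. Those chosen after seeing the data were limma-voom in this form, averaged HFS libraries and crossed replicate numbers. Figures used matplotlib 3.10.9 and Python 3.11.15.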

Additional observations from a re-analysis of the deposited data

Results flagged for a closer look

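The diet difference of 2 genes differed between precursors and adipocytes by the interaction test. For Angptl4 it was -1.91 on the log2 scale (HFS minus C in AD less HFS minus C in ASC; limma-trend adjusted p = 0.00956), with HFS above C in both ASC_HFS libraries and no difference past the threshold in AD. For Lmf1 it was 1.02 (limma-trend adjusted p = 0.0436), with both ASC_HFS libraries, at 19 and 4 reads, below both ASC_C libraries, at 105 and 111 reads. The Lmf1 call was lost under the replicate block (limma-trend adjusted p = 0.0608) and in all but 2 of the 8 fits that left out 1 library, where the adjusted p of limma-trend ran from 0.0207 to 0.168. The Angptl4 call held under the replicate block (limma-trend adjusted p = 0.00802) and in 7 of those 8 fits.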

How the results depend on the processing

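In ASC, 12 of 13 settings with all libraries kept the calls of Angptl4 and Lmf1. The exception was the fit with the HFS libraries averaged, which left 1 residual degree of freedom. Its log2 differences were 1.62 for Angptl4 and -1.03 for Lmf1. Fabp5 turned to -0.072 after quantile normalization. In AD, 244 genes were called, against 95 with a common upper quartile, 661 with the replicate block, 112 on log2 recovered counts, 150 by limma-voom, 423 with all 8 libraries and 0 with HFS libraries averaged. None of the 7 was called in any of these. For the interaction the replicate block left 1 of 2 calls (Lmf1 gave limma-trend adjusted p = 0.0608). Higher and lower calls were 1056 and 691, and 1079 and 416 by limma-voom, where the median of all genes moved from 0.07 to 0.26. Equal replicate numbers did not deviate together (r = -0.12 in ASC, 0.0014 in AD, 2 pairs each), and crossed numbers gave 3634 calls in ASC, against 2976 with the replicate block as labelled. Fabp4 in AD_HFS was at 7816 RPM over all genes and 7829 over shared genes, and the other 27 levels moved by less than 1 SD.

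Leaving out each library gave these ranges over limma-trend and limma-voom. In ASC, 0 to 3643 genes and 0 to 4 of the 7 were called, with log2 differences of -0.075 to 0.046 for Lpl, -0.37 to 1.84 for Fabp4, -0.21 to 0.38 for Fabp5 and -1.15 to 0.24 for Slc27a1. In AD, 0 to 9830 genes and 0 to 5 of the 7 were called, with -0.59 to 0.010 for Angptl4, -0.078 to 0.062 for Lmf1, -0.47 to 0.62 for Vldlr, -0.16 to 0.32 for Fabp4, -0.060 to 0.55 for Fabp5 and -0.57 to 0.88 for Slc27a1. For the interaction (limma-trend alone), 425 to 2382 genes and 0 to 3 of the 7 were called, with -0.058 to 1.00 for Vldlr, -1.71 to 0.45 for Fabp4, -0.14 to 0.47 for Fabp5 and -0.22 to 1.22 for Slc27a1. edgeR was not run, and limma-voom with TMM factors was replaced as described. The cause of these changes was not tested. Depth limits Lmf1 most, at 4 reads in ASC_HFS replicate 2.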
